A study of Mus musculus with 66 samples.

Results

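Bcl6 and Bach2 are 2 of the 23420 genes listed in every library of this series, and both were followed through all 66 libraries. They were chosen by name, with earlier results of the same data in view, for changes that ran in opposite directions in germinal centre (GC) and naive B cells. Stimulus differences, differences between the cell types and unstimulated levels of both genes are therefore given as descriptions, with a standard error and no test. Tests are given for changes between 2 h and 4 h of culture within a cell type and for other genes of the same pathways.

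BCL6 is a BTB zinc finger repressor that B cells need to form germinal centres. It recruits corepressors and holds back genes of activation, cell cycle arrest, DNA damage response and plasma cell differentiation. BACH2 is a basic leucine zipper repressor that pairs with small MAF proteins, and it also holds back Prdm1, the gene for the plasma cell regulator BLIMP1. Both genes are textbook parts of the choice between staying in the germinal centre and leaving it.

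All libraries came from spleen B cells of BALB/c mice carrying the B1-8 IgM receptor transgene (the MEG strain of the labels), with 33 libraries from GC and 33 from naive cells. Beads were used to purify the cells, which were then cultured for 2 h or 4 h. Some cultures were left without stimulus. Others received anti-CD40, an antibody that stands in for the CD40 ligand of T cells, anti-IgM, an antibody that crosslinks surface IgM, or both. Others again received the follicular helper T cell cytokine IL-21, by itself or beside anti-CD40. Nothing in the labels says that replicates are separate mice or cultures, so the p-values speak only of how far these libraries scatter, and that scatter may be technical. Age, and how the germinal centres were raised, are not given in the sources used here.

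The libraries form 2 sets that appear to have been normalized separately, with 28 groups of 2 to 3 libraries in all. Set A has 34 libraries: the 2 IL-21 treatments and the anti-CD40 replicates 1 to 3. Set B has 32: the unstimulated cells, the 2 anti-IgM treatments and the anti-CD40 replicates 4 and 5. Stimuli were compared within a set only, so IL-21 was not set against unstimulated cells. In set B, libraries sharing a number in the file headers (which number anti-CD40 replicates 4 and 5 as 1 and 2) deviated from their group means together. Across 11264 genes this offset ran in opposite directions in the cell types (Pearson r = -0.93 between GC and naive offsets, across genes, which are not independent). Number 1 minus number 2 was 0.29 for Bcl6 and 0.64 for Bach2 in GC cells, and -0.61 and -0.85 in naive cells. Every set B group has 1 library of each number, so the offset widens the spread without moving the differences between groups. What the numbers mark, and whether an adjustment was made before deposit, are not given in the sources used here. In set A the lowest repeated values of Bcl6b, a relative of Bcl6, went by header number. They were -4.79 for number 1, -5.13 for number 2 and -5.47 for number 3. Whether values were shifted by number before deposit was not tested. P-values of fits with the number as a block rest on reading it as a shared handling of the libraries within a cell type. The labels matched the marker genes: the summed level of 10 GC markers was 10.24 to 11.93 in GC libraries and 6.09 to 8.53 in naive libraries. That of 9 naive markers was 9.04 to 11.66 in GC and 11.76 to 13.19 in naive libraries. The summed level of 7 T cell markers had medians of 7.56 in GC and 6.67 in naive libraries of set A. In set B these medians were 8.11 and 7.30. The part of T cells in the levels of Bcl6 and Bach2 was not tested.

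Values are the deposited log2 levels, close to log2 CPM, and differences are log2 differences ± SE. Sequencing depth is unknown. In bulk RNA, fewer cells of a type and less RNA per cell cannot be told apart. Levels are not divided by gene length, so Bcl6 and Bach2 are compared in how they move and not in how abundant they are.

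Bcl6 (ENSMUSG00000022508.5) lies on the minus strand at chr16:23965052-23988852 and Bach2 (ENSMUSG00000040270.16) on the plus strand at chr4:32238804-32586108, in GRCm38. IL-21 acts through STAT factors, and Bcl6 is a known STAT target, so the 250 bases before each annotated RefSeq start (GRCm38.p6) are shown, with motif matches in capitals. The motifs searched on both strands were TTCNNNGAA (STAT), TTCCTAGAA (BCL6, which is itself a case of the STAT letters), TGTTTAC (FOXO), CACGTG (E-box), TGACGTCA (CRE), TGANTCA (AP-1) and TGCTGA (a MAF half-site).
Bcl6, chr16:23988853-23989102, minus strand: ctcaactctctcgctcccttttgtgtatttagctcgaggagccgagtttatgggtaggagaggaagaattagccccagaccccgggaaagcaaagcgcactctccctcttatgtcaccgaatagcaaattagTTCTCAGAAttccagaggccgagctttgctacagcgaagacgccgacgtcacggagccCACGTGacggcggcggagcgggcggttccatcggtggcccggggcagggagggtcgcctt
Bcl6, downstream start, chr16:23981284-23981533, minus strand: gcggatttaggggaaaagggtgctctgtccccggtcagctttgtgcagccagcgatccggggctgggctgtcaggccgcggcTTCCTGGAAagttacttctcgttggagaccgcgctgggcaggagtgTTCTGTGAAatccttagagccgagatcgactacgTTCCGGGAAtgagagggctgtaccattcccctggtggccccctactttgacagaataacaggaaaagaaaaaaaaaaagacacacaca
Bach2, chr4:32417185-32417434, plus strand: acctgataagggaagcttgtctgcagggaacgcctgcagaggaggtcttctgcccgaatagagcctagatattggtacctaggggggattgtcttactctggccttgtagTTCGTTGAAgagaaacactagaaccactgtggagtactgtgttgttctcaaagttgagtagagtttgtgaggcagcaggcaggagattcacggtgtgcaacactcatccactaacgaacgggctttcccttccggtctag

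The window before the first Bcl6 start lies upstream of the gene, and the other windows lie inside their genes without overlapping an annotated exon. The Bach2 window begins at 32417185, and the annotated gene begins at 32238804. The bases before the annotated Bach2 gene were therefore not searched. The first Bcl6 window holds 1 STAT match, TTCTCAGAA, from -118 to -110, and 1 E-box, from -60 to -55, counted from the start site. The downstream Bcl6 window holds 3 STAT matches, TTCCTGGAA, TTCTGTGAA and TTCCGGGAA. The Bach2 window holds 1 STAT match, TTCGTTGAA, from -140 to -132. A STAT match was present in 7.02% of 32851 such windows, and 3 or more were present in 0.0274% (9 windows). An E-box was present in 6.02% of windows. No window of either gene held the letters of the FOXO (3.17% of all windows), CRE (1.55%), AP-1 (6.75%), BCL6 (0.347%) or MAF (16.1%) motif. These matches describe the letters only and do not show that a factor binds there.

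In unstimulated cells, Bcl6 was far higher in GC than in naive B cells. In GC libraries its level was 7.91 and 7.59 at 2 h, and 8.17 and 8.38 at 4 h. In naive libraries it was 3.73 and 4.43 at 2 h, and 4.78 and 5.17 at 4 h. The groups did not overlap at either time, and the mean difference was 3.49 ± 0.28.

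**Figure D1:**
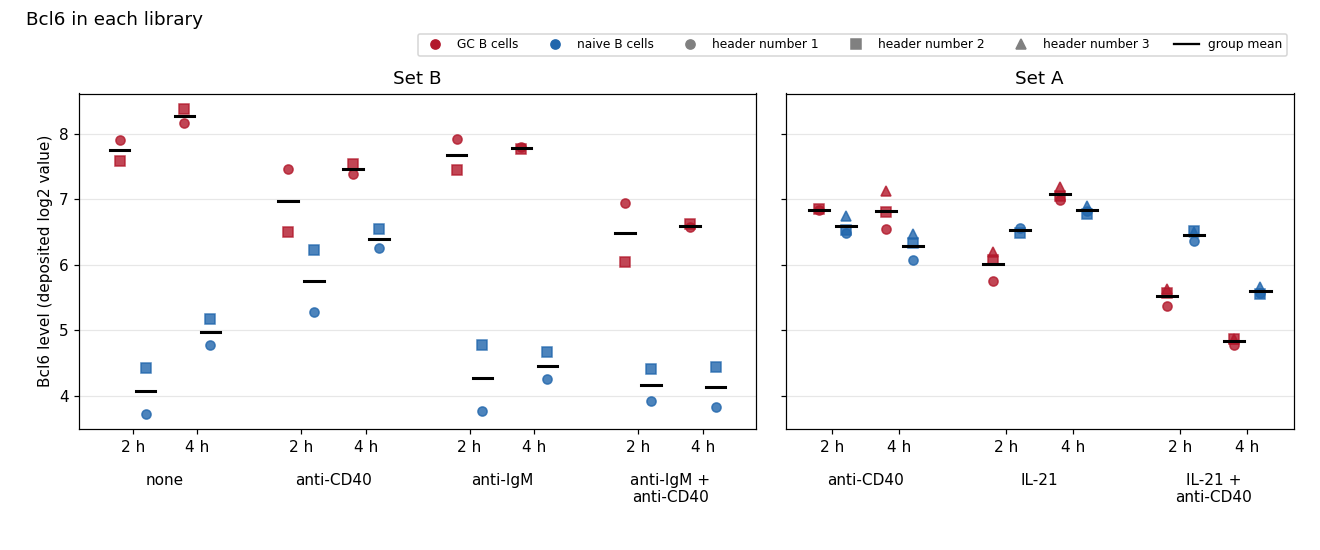
Deposited log2 level of Bcl6 in each library (y axis) by stimulus and time (x axis), with set B on the left and set A on the right; points are libraries, shapes are header numbers and bars are group means. With anti-CD40 in set B, GC points lie below and naive points above their unstimulated groups, and in set A the lowest GC points, from 4.78 to 4.87, are those of IL-21 plus anti-CD40 at 4 h.

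Anti-CD40 alone moved Bcl6 in opposite directions in the cell types. In GC cells its level was 7.46 and 6.50 at 2 h and 7.38 and 7.54 at 4 h, all below the unstimulated libraries of the same time. The difference from no stimulus was -0.79 ± 0.28, and all 4 comparisons matched by time and header number were lower (from -1.08 to -0.45). In naive cells the level was 5.28 and 6.23 at 2 h and 6.25 and 6.54 at 4 h, all above the unstimulated libraries. That difference was 1.55 ± 0.28, with all 4 matched comparisons higher (from 1.37 to 1.80), and the GC difference minus the naive one was -2.34 ± 0.40. Under anti-CD40 the distance between GC and naive levels thus narrowed from both sides.

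Under anti-IgM alone, Bcl6 was lower than without stimulus at 4 h and overlapped it at 2 h, in both cell types. In GC cells it was 7.92 and 7.44 at 2 h and 7.80 and 7.76 at 4 h, a difference of -0.28 ± 0.28 from no stimulus. In naive cells it was 3.77 and 4.78 at 2 h and 4.26 and 4.67 at 4 h, a difference of -0.16 ± 0.28. At 4 h the difference was -0.49 ± 0.40 in GC and -0.51 ± 0.40 in naive cells, where neither group overlapped its control. At 2 h it was -0.07 ± 0.40 and 0.19 ± 0.40. With the header number as a block the standard error of the averaged differences was 0.16.

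With anti-IgM and anti-CD40 together, the naive rise was absent and the GC fall was deeper. Naive levels were 3.92 and 4.41 at 2 h and 3.84 and 4.45 at 4 h, which is -1.92 ± 0.28 from anti-CD40 alone and -0.37 ± 0.28 from no stimulus. The 2 h naive values overlapped those of unstimulated cells, and the 4 h values lay below them. GC levels were 6.94 and 6.04 at 2 h and 6.57 and 6.62 at 4 h, which is -0.67 ± 0.28 from anti-CD40 alone and -1.47 ± 0.28 from no stimulus. All 4 matched GC comparisons were lower in both cases. Adding anti-IgM to anti-CD40 thus left Bcl6 lower in both cell types.

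In set A, IL-21 with anti-CD40 gave the lowest Bcl6 level in GC cells. GC levels under anti-CD40 were 6.83 and 6.85 at 2 h and 6.55, 6.80 and 7.12 at 4 h. Under IL-21 they were 5.76, 6.07 and 6.20 at 2 h and 6.99, 7.05 and 7.18 at 4 h. Under both they were 5.38, 5.57 and 5.63 at 2 h and 4.78, 4.87 and 4.87 at 4 h, below every library of either single stimulus at the same time. The combination differed from anti-CD40 by -1.65 ± 0.09 and from IL-21 by -1.36 ± 0.08. The difference from IL-21 was -0.48 ± 0.11 at 2 h and -2.23 ± 0.11 at 4 h.

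Naive cells of set A moved the same way by less. Bcl6 was 6.49, 6.53 and 6.74 at 2 h and 6.08, 6.33 and 6.47 at 4 h under anti-CD40, and 6.56 and 6.49 at 2 h and 6.82, 6.77 and 6.90 at 4 h under IL-21. Under both it was 6.36, 6.52 and 6.50 at 2 h and 5.57, 5.56 and 5.67 at 4 h. The 2 h values overlapped between stimuli, and the 4 h values of the combination lay below all others. The combination differed from anti-CD40 by -0.41 ± 0.08 and from IL-21 by -0.65 ± 0.09, and the GC difference from anti-CD40 minus the naive one was -1.24 ± 0.12. Against anti-CD40, IL-21 alone was lower in GC cells at 2 h (-0.83 ± 0.13) and higher at 4 h (0.25 ± 0.11). In naive cells the same differences were -0.06 ± 0.13 and 0.53 ± 0.11.

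In order of group means, Bcl6 in GC cells of set B ran from no stimulus at 4 h (8.28 ± 0.14, SD, n = 2) down to anti-IgM plus anti-CD40 at 2 h (6.49 ± 0.63, SD, n = 2). The first group stood clear of the second, and all later neighbours in that order overlapped. In naive cells of set B, anti-CD40 at 4 h (6.39 ± 0.21), anti-CD40 at 2 h (5.76 ± 0.67) and no stimulus at 4 h (4.98 ± 0.28) each stood clear of the next (SD, n = 2 each). The remaining 5 naive groups, from 4.08 to 4.46, overlapped. In set A the GC order ran from IL-21 at 4 h (7.07 ± 0.10, SD, n = 3) to the combination at 4 h (4.84 ± 0.05, SD, n = 3), where the 2 anti-CD40 groups were the only neighbours that overlapped. In naive cells of set A, IL-21 at 4 h (6.83 ± 0.06) stood clear above and the combination at 4 h (5.60 ± 0.06) clear below the other 4 groups, which overlapped (SD, n = 3 each).

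**Figure D2:**
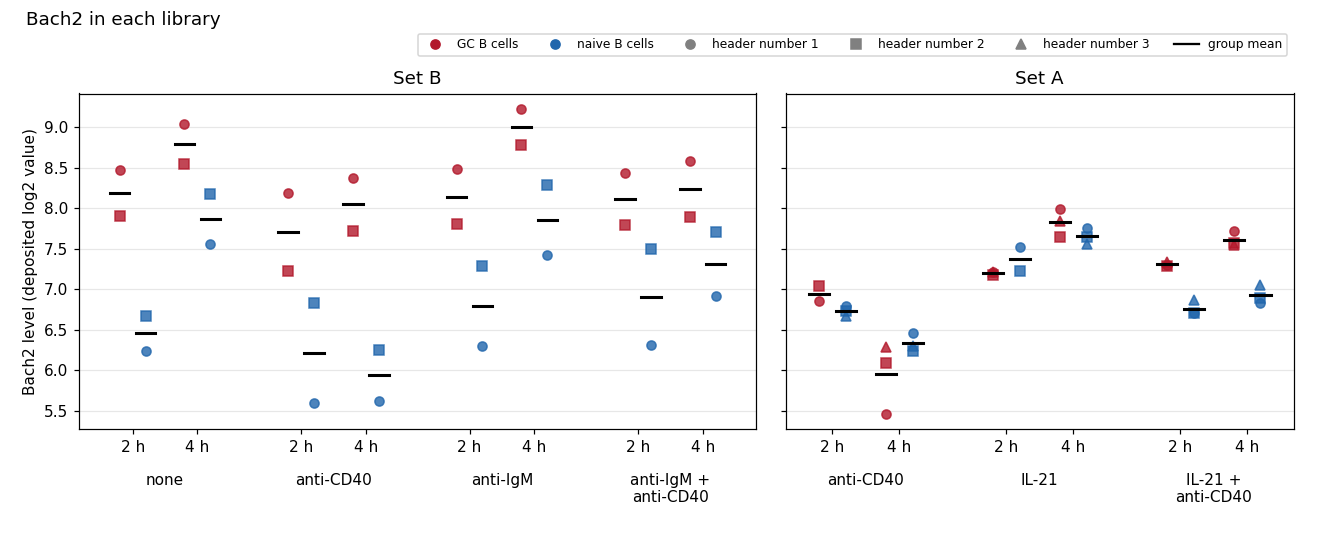
Deposited log2 level of Bach2 in each library (y axis) by stimulus and time (x axis), with set B on the left and set A on the right; points are libraries, shapes are header numbers and bars are group means. In set A the GC libraries at 4 h of anti-CD40, from 5.46 to 6.29, are the lowest of that cell type, and in set B the 2 header numbers stand apart within each group.

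Bach2 was also higher in unstimulated GC than in naive cells, by 1.33 ± 0.37. GC levels were 8.47 and 7.91 at 2 h and 9.04 and 8.55 at 4 h. Naive levels were 6.24 and 6.67 at 2 h and 7.56 and 8.18 at 4 h. The groups did not overlap at either time.

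Bach2 did not share the opposite move of Bcl6 under anti-CD40, since it was lower in both cell types. GC levels were 8.19 and 7.23 at 2 h and 8.38 and 7.72 at 4 h, which is -0.62 ± 0.37 from no stimulus, with the 2 h groups overlapping and the 4 h groups apart. All 4 matched GC comparisons were lower (from -0.84 to -0.29). Naive levels were 5.59 and 6.83 at 2 h and 5.62 and 6.25 at 4 h, which is -1.09 ± 0.37, with 3 of 4 matched comparisons lower. The naive difference was -0.24 ± 0.52 at 2 h and -1.94 ± 0.52 at 4 h, with unstimulated libraries higher at 4 h than at 2 h and anti-CD40 libraries not.

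Bach2 under anti-IgM alone differed little from its unstimulated level, and under both stimuli its mean was lower at 4 h, with overlapping libraries. With anti-IgM alone, GC levels were 8.48 and 7.81 at 2 h and 9.23 and 8.78 at 4 h, and naive levels were 6.30 and 7.29 at 2 h and 7.42 and 8.29 at 4 h. The differences from no stimulus were 0.08 ± 0.37 and 0.16 ± 0.37, with a standard error of 0.11 under the block. With both stimuli, GC levels were 8.44 and 7.79 at 2 h and 8.58 and 7.89 at 4 h, and naive levels were 6.31 and 7.50 at 2 h and 6.91 and 7.71 at 4 h. Against anti-CD40 alone these were 0.30 ± 0.37 higher in GC and 1.03 ± 0.37 higher in naive cells, with all 4 matched comparisons higher in each. Against no stimulus they were -0.32 ± 0.37 in GC cells, with all 4 matched comparisons lower (from -0.67 to -0.03), and -0.06 ± 0.37 in naive cells. That naive average joins 0.45 ± 0.52 at 2 h with -0.56 ± 0.52 at 4 h, and the GC differences were -0.08 ± 0.52 and -0.56 ± 0.52. Adding anti-IgM to anti-CD40 thus went with lower Bcl6 and higher Bach2 in naive cells.

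In set A, IL-21 kept Bach2 above its level under anti-CD40. GC levels were 6.85 and 7.04 at 2 h and 5.46, 6.09 and 6.29 at 4 h under anti-CD40. They were 7.21, 7.17 and 7.21 at 2 h and 7.99, 7.65 and 7.84 at 4 h under IL-21, and 7.30, 7.29 and 7.34 at 2 h and 7.72, 7.57 and 7.55 at 4 h under both. Anti-CD40 libraries were the lowest at each time, with no overlap. The combination differed from anti-CD40 by 1.01 ± 0.10 and from IL-21 by -0.05 ± 0.09.

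In naive cells the combination lay between the single stimuli. Bach2 was 6.79, 6.73 and 6.67 at 2 h and 6.46, 6.23 and 6.30 at 4 h under anti-CD40, and 7.52 and 7.22 at 2 h and 7.76, 7.64 and 7.56 at 4 h under IL-21. Under both it was 6.70, 6.70 and 6.86 at 2 h and 6.83, 6.89 and 7.05 at 4 h. It differed from anti-CD40 by 0.31 ± 0.09, with overlap at 2 h, and from IL-21 by -0.67 ± 0.10, with none. In GC cells of set A the combination therefore had low Bcl6 beside Bach2 at the level seen with IL-21, while in naive cells it was on average below IL-21 for both genes.

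The order of Bach2 group means in set B ran, in GC cells, from anti-IgM at 4 h (9.01 ± 0.32, SD, n = 2) to anti-CD40 at 2 h (7.71 ± 0.68, SD, n = 2), and each neighbour in it overlapped the next. In naive cells of set B it ran from no stimulus at 4 h (7.87 ± 0.44) to anti-CD40 at 4 h (5.94 ± 0.44, SD, n = 2 each), again with every neighbour overlapping. In set A the GC order ran from IL-21 at 4 h (7.83 ± 0.17) to anti-CD40 at 4 h (5.95 ± 0.43, SD, n = 3 each), and 1 pair of neighbours overlapped, IL-21 and the combination at 4 h. In naive cells of set A both IL-21 groups stood clear at the top (7.65 ± 0.10, n = 3, and 7.37 ± 0.21, n = 2, SD) and anti-CD40 at 4 h stood clear at the bottom (6.33 ± 0.12, SD, n = 3). The antisense transcript Bach2os has 3 of 10 listed exons over Bach2 exons, and the sources used here do not say whether counting used strand, so reads there cannot be told apart.

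**Figure D3:**
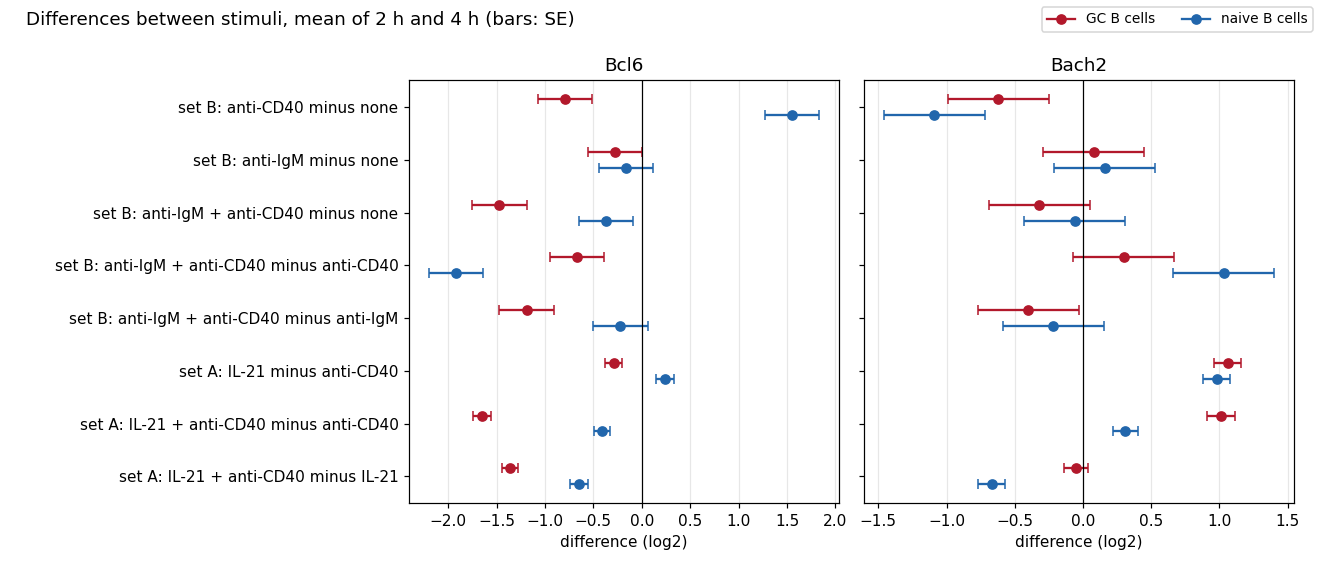
Log2 differences between stimuli (x axis), as the mean of the 2 h and 4 h differences, for Bcl6 on the left and Bach2 on the right; rows are comparisons within a set and bars are standard errors from the limma fit. In the Bcl6 panel the anti-CD40 row of set B has the GC point at -0.79 and the naive point at 1.55, while in the Bach2 panel both points of that row are below 0.

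Between 2 h and 4 h, the time course of Bcl6 in set A depended on the stimulus. With IL-21 alone it rose in GC cells by 1.06 ± 0.11 (adjusted p = 2e-08, limma, over 11264 genes). With IL-21 plus anti-CD40 it fell by 0.68 ± 0.11 in GC cells (adjusted p = 7.1e-06, limma) and by 0.86 ± 0.11 in naive cells (adjusted p = 1.7e-07, limma). In these comparisons 33.8%, 59.8% and 57.5% of all genes were called, so a call by itself was common. With IL-21 alone in naive cells the change was 0.31 ± 0.13 (adjusted p = 0.052, limma, with 42.8% called), and the GC change exceeded it by 0.76 ± 0.17 (adjusted p = 0.0022, limma, with 19.1% of genes called).

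A comparison chosen after seeing these values set the time change under the combination against that under IL-21. It is the change of a stimulus difference, so it is given as a description with no test. For Bcl6 it was -1.75 ± 0.16 in GC cells and -1.17 ± 0.17 in naive cells. For Bach2 it was -0.33 ± 0.18 and -0.12 ± 0.19. In GC cells Bcl6 under IL-21 thus rose with time without anti-CD40 and fell with it, while in naive cells the change without anti-CD40 did not pass. Set A held no unstimulated culture, so the part of culture time itself in these changes was not tested. In unstimulated cells of set B, Bcl6 changed by 0.53 ± 0.40 in GC and 0.90 ± 0.40 in naive cells, without a call in the fit without a block.

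Bach2 changed with time in set A in other comparisons. In GC cells it rose under IL-21 by 0.63 ± 0.13 (adjusted p = 0.00027, limma) and fell under anti-CD40 by 1.00 ± 0.14 (adjusted p = 1.3e-06, limma, with 48.1% of genes called). In naive cells it fell under anti-CD40 by 0.40 ± 0.13 (adjusted p = 0.0076, limma, with 57% called), and the fall was larger in GC cells by 0.59 ± 0.19 (adjusted p = 0.019, limma, with 29% called). Under the combination the GC change was 0.30 ± 0.13 (adjusted p = 0.041, limma), a call that was lost when any of its 6 libraries other than replicate 3 at 4 h was left out (adjusted p up to 0.14, limma). The naive changes were 0.29 ± 0.14 under IL-21 and 0.17 ± 0.13 under the combination, and neither passed (adjusted p = 0.11 and 0.27, limma). Bcl6 under anti-CD40 changed by -0.02 ± 0.13 in GC cells (adjusted p = 0.91, limma) and fell by 0.29 ± 0.11 in naive cells (adjusted p = 0.031, limma). That last call was lost without replicate 3 at 2 h (-0.21) or without replicate 1 at 4 h (-0.18).

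Set B gave no time call for either gene in the fit without pairing, where the offset between header numbers enters the error. That fit called 0.213% and 15.1% of all genes in unstimulated GC and naive cells, 10.3% and 15.6% with anti-CD40, 1.21% and 15.7% with anti-IgM, and 8.42% and 20.5% with both stimuli. These shares could fall when 1 library was left out, which leaves its group with a single library and unbalances the header numbers. With the header number as a block, a setting chosen after seeing the data, Bach2 rose in unstimulated naive cells by 1.42 ± 0.15 (adjusted p = 5.7e-07 against 0.073 without the block, limma). It also rose in unstimulated GC cells by 0.61 ± 0.15 (adjusted p = 0.025 against 1) and under anti-IgM by 0.86 ± 0.15 in GC cells (0.00087 against 0.71) and 1.06 ± 0.15 in naive cells (1.3e-05 against 0.19). In naive cells with both stimuli the blocked change was 0.41 ± 0.15 (adjusted p = 0.037 against 0.68, limma). Bcl6 rose with the block in naive cells without stimulus, by 0.90 ± 0.23 (adjusted p = 0.0033 against 0.14, limma), and with anti-CD40, by 0.63 ± 0.23 (0.031 against 0.33). The blocked fit called 41.8% of all genes in unstimulated naive cells, 4.73% in unstimulated GC cells, 9.89% and 39.9% with anti-IgM in GC and naive cells, and 44.2% in naive cells with both stimuli. Under anti-CD40 the blocked Bach2 changes were 0.34 ± 0.15 in GC and -0.28 ± 0.15 in naive cells (adjusted p = 0.096 and 0.16, limma), where 32.6% and 39.8% of genes were called. In unstimulated cells the change of Bach2, GC minus naive, was -0.81, given with no test. Its standard error was 0.73 without the block and 0.22 with it.

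The time courses under anti-CD40 were not alike in the sets, which hold different replicates of the same labelled culture. Bach2 in GC cells fell by 1.00 in set A and changed by 0.34 ± 0.52 in set B (adjusted p = 0.79, limma). Bcl6 in naive cells fell by 0.29 in set A and changed by 0.63 ± 0.40 in set B (adjusted p = 0.33, limma). In 1 fit of all 28 groups, again chosen after seeing these values, the set difference was -1.34 ± 0.50 for Bach2 in GC cells (adjusted p = 0.41, limma) and -0.92 ± 0.37 for Bcl6 in naive cells (adjusted p = 0.24, limma), where 0% and 1.19% of genes were called. With the header number as a block the same differences passed, at -1.37 ± 0.22 (adjusted p = 0.0011, limma, with 3.96% of genes called) and -0.92 ± 0.23 (adjusted p = 0.007, limma, with 10.6% called). Erythroid markers also differed between the sets in GC libraries. Their summed level was 10.13 to 11.62 in set A and 5.58 to 8.04 in set B. That sum counts the Beta-s row under both Hbb-bs and Beta-s. Myeloid markers differed too, at 5.52 to 6.99 in set A and 2.50 to 4.06 in set B. The part of both marker lists in the set difference was not tested.

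**Figure D4:**
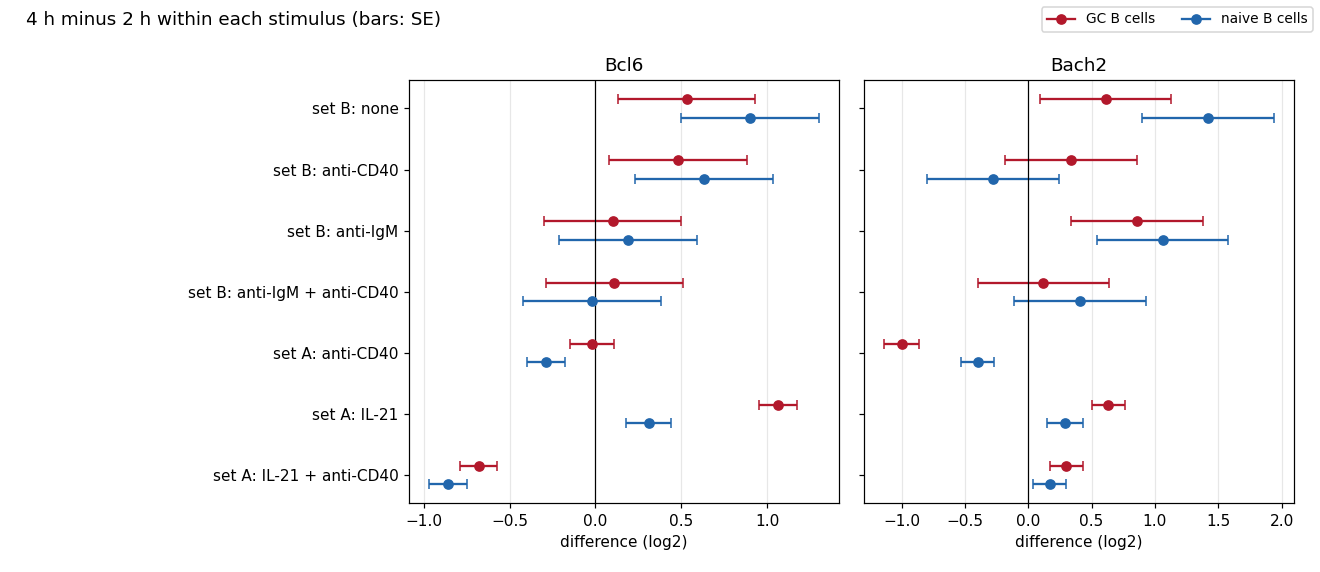
Log2 difference between 4 h and 2 h (x axis) for each stimulus and set (rows), with Bcl6 on the left and Bach2 on the right; bars are standard errors from the limma fit without a block. In set A the Bcl6 points are above 0 for IL-21 and below 0 for IL-21 plus anti-CD40, and the Bach2 GC point for anti-CD40 is below 0, where that of set B is at 0.34.

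The closest relatives of the members were measured beside them. Bcl6b, a BTB zinc finger paralogue of Bcl6, was near the bottom of the scale, with a level above 1 in 5 of 66 libraries and a highest value of 2.67. Those 5 were naive libraries with anti-IgM, alone or beside anti-CD40, and it entered the fit through them, so its differences are given with no test. Under anti-IgM alone it was at 2.12 and 2.67 at 2 h and -0.02 and 1.11 at 4 h in naive cells, where unstimulated libraries lay between -1.84 and -0.96. In GC cells it was at 0.71 and 0.99 at 2 h and -0.47 and -0.89 at 4 h, above unstimulated libraries at -4.69 to -1.06. Bach1, which also pairs with small MAF proteins and responds to heme, ranged from 1.01 to 5.94. It fell between 2 h and 4 h in set A under IL-21 plus anti-CD40, by 1.35 ± 0.21 in GC and 1.31 ± 0.21 in naive cells (adjusted p = 2e-06 and 3.5e-06, limma). Of all genes 59.8% and 57.5% were called there. Single stimuli went with falls too: in naive cells by 1.57 ± 0.21 under anti-CD40 and 1.22 ± 0.23 under IL-21 (adjusted p = 1.6e-07 and 1e-04, limma). In GC cells the changes were -0.45 ± 0.23 under anti-CD40 and -0.60 ± 0.21 under IL-21 (adjusted p = 0.11 and 0.024, limma). With anti-IgM, Bach1 differed from no stimulus by 0.85 ± 0.63 in GC and 1.40 ± 0.63 in naive cells, differences called only with the block (adjusted p = 7e-04 and 4.5e-07 against 0.61 and 0.1, limma). Its header number offset in set B was 1.31 in GC and -1.30 in naive cells.

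Factors known to act on Bcl6 or Bach2 were listed as 18 genes, all tested. Under anti-CD40, 3 rose and 2 fell in GC cells and 2 rose and 4 fell in naive cells, where 13.9% and 28.7% of all genes were called. With the block these counts were 6 and 4, and 7 and 7, where 35.2% and 52.7% of all genes were called. In GC cells Irf4, which represses Bcl6 at high levels, rose by 2.71 ± 0.64 (adjusted p = 0.0059, limma). In naive cells Foxo1, a forkhead factor lost from the nucleus on PI3K signalling, fell by 1.05 ± 0.11 (adjusted p = 5.4e-07, limma), and Mef2c fell by 1.57 ± 0.17 (adjusted p = 7.1e-07, limma). Irf4 also rose in naive cells, by 2.05 ± 0.64 (adjusted p = 0.02, limma), where Bcl6 was higher. The response to anti-CD40 differed between the cell types for 5 of the 18 (8 with the block), beside 4.11% of all genes (19.6% with the block), among them Foxo1 (GC minus naive 0.88 ± 0.15, adjusted p = 0.0019, limma).

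When IL-21 was added to anti-CD40, 5 of the 18 rose and 6 fell in GC cells and 5 rose and 7 fell in naive cells, where 33.2% and 24.3% of all genes were called. Stat3, the main STAT factor of the IL-21 receptor, rose by 1.42 ± 0.10 in GC and 1.43 ± 0.09 in naive cells (adjusted p = 5.5e-13 and 1.6e-13, limma). Spib, an Ets factor of B cells, fell by 1.48 ± 0.09 and 1.31 ± 0.08 (adjusted p = 1.6e-14 and 8.6e-14, limma). Irf4 differed by -0.12 ± 0.08 and -0.14 ± 0.07, and neither passed (adjusted p = 0.26 and 0.18, limma). Mef2b, which activates Bcl6 in human GC B cells, responded differently in the cell types (GC minus naive -0.60 ± 0.09, adjusted p = 4.3e-05, limma, with 5.77% of all genes called).

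Of 20 corepressors and chromatin enzymes known to work with BCL6, 2 rose and 1 fell in GC cells under anti-CD40, and 2 rose and 3 fell in naive cells, beside 13.9% and 28.7% of all genes called. With the block 3 rose and 4 fell in GC cells, and 7 rose and 5 fell in naive cells, beside 35.2% and 52.7%. The median difference was -0.15 and 0.08, beside -0.02 and 0.02 over all genes. Ezh2, the Polycomb methyltransferase, was higher in unstimulated GC than naive cells by 3.39 ± 0.11 (adjusted p = 1.3e-14, limma, with 53.7% of genes called) and rose in naive cells under anti-CD40 by 0.72 ± 0.11 (adjusted p = 4.3e-05, limma). Bcor, a BCL6 corepressor, rose in GC cells when IL-21 was added to anti-CD40, by 0.94 ± 0.10 (adjusted p = 3.2e-09, limma), where 2 of the 20 rose and 5 fell beside 33.2% of all genes called. In naive cells 1 rose and 8 fell beside 24.3%, with Hdac4 up by 0.71 ± 0.15 (adjusted p = 0.00062, limma).

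Of 26 listed BTB zinc finger genes, the family of Bcl6, 25 were tested. Under anti-CD40, 2 rose and 1 fell in GC cells (5 and 3 with the block) and 4 rose and 4 fell in naive cells (10 and 6 with the block). These counts stand beside 13.9% and 28.7% of all genes called, or 35.2% and 52.7% with the block. Zbtb46 rose in both, by 1.71 ± 0.18 and 2.98 ± 0.18 (adjusted p = 8.6e-07 and 2.5e-10, limma), and Zbtb38 fell in both, by 0.98 ± 0.16 and 1.15 ± 0.16 (adjusted p = 0.00027 and 2.4e-05, limma). Zbtb32, a repressor that limits recall antibody responses in mice, rose in naive cells when anti-IgM was added to anti-CD40, by 2.45 ± 0.17 (adjusted p = 6.8e-09, limma). There 5 of the 25 rose and 3 fell, with 14.4% of all genes called (11 and 5, with 34.2%, under the block).

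The genes of bZIP proteins that pair or compete with BACH factors were next. Of 11 listed, 10 were tested, and 4 rose and 0 fell under anti-CD40 in each cell type, with medians of 0.53 and 0.49 and beside 13.9% and 28.7% of all genes called. With the block 8 rose and 0 fell in GC cells, and 6 rose and 2 fell in naive cells, beside 35.2% and 52.7%. Batf, an AP-1 family factor, rose by 3.40 ± 0.28 in GC and 1.38 ± 0.28 in naive cells (adjusted p = 5e-08 and 0.00087, limma), and the responses differed by 2.02 ± 0.40 (adjusted p = 0.0053, limma). The small MAF genes Mafk and Mafg, whose products are the DNA-binding partners of BACH2, rose under anti-IgM. There 4 of the 10 rose and 1 fell in GC cells and 3 rose and 2 fell in naive cells, beside 9.05% and 30.4% of all genes called. With the block 6 rose and 1 fell, and 5 rose and 3 fell, beside 23.5% and 54%. Mafk rose by 1.79 ± 0.11 in GC and 1.34 ± 0.11 in naive cells (adjusted p = 1.8e-09 and 2.1e-08, limma), and Mafg by 1.50 ± 0.16 and 1.58 ± 0.16 (adjusted p = 2.9e-06 and 3.8e-07, limma). Adding IL-21 to anti-CD40 raised Jun by 2.87 ± 0.07 in GC and 1.92 ± 0.07 in naive cells (adjusted p = 4.5e-24 and 2.9e-20, limma), and 6 of the 10 rose and 1 fell in GC cells while 5 rose and 0 fell in naive cells, beside 33.2% and 24.3% of all genes called.

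Among genes described as repressed by BCL6, more rose than fell under each stimulus set against no stimulus, and more fell than rose under IL-21 set against anti-CD40. Of 23 tested, 11 rose and 1 fell in GC cells under anti-CD40, where 7.49% of all genes rose and 6.45% fell, and the median was 0.81 beside -0.02 over all genes. In naive cells, where Bcl6 was higher, 14 rose and 3 fell beside 13.9% and 14.8% of all genes, with a median of 0.86 beside 0.02. Bcl2l1, an anti-apoptotic gene, rose by 4.13 ± 0.19 in GC and 4.89 ± 0.19 in naive cells (adjusted p = 2.3e-11 and 1.4e-12, limma). S1pr1, a sphingosine-1-phosphate receptor for leaving tissue, changed by -3.48 ± 0.19 and -4.60 ± 0.19 (adjusted p = 3.1e-10 and 5.1e-12, limma). The change of 8 of the 23 differed between the cell types, 7 more upward in GC cells, beside 2.65% of all genes more upward and 1.46% more downward. With the block 9 were more upward and 6 more downward in GC cells, beside 19.6% of all genes called in either direction. The 8 included Cd69, an activation marker (GC minus naive 1.70 ± 0.26, adjusted p = 0.00065, limma), and Bcl2 (1.82 ± 0.33, adjusted p = 0.0026, limma).

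Anti-IgM alone raised 5 of the 23 and lowered 0 in GC cells, and raised 10 and lowered 4 in naive cells. Of all genes 5.81% rose and 3.23% fell in GC cells, and 15.3% rose and 15.2% fell in naive cells. Myc, the growth regulator, rose by 1.25 ± 0.21 and 2.44 ± 0.21 (adjusted p = 0.00058 and 7.4e-08, limma). With the block the GC count was 9 raised and 2 lowered, where 23.5% of all genes were called. Anti-IgM plus anti-CD40 raised 14 and lowered 1 in GC cells, and raised 15 and lowered 4 in naive cells, where 13.9% and 20.7% of all genes rose and 12.4% and 21.6% fell.

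With IL-21 added to anti-CD40, 10 of the 23 rose and 3 fell in GC cells and 12 rose and 4 fell in naive cells, beside 15.4% and 10.6% of all genes rising and 17.8% and 13.7% falling. The medians were 0.18 and 0.43, beside -0.03 and -0.01 over all genes. Myc rose by 1.51 ± 0.10 in GC cells (adjusted p = 2.8e-13, limma), and S1pr1 rose by 1.81 ± 0.10 (adjusted p = 9.6e-15, limma). Against IL-21 alone the combination raised 15 and lowered 2 in GC cells and raised 17 and lowered 3 in naive cells, beside 25.5% and 26.6% of all genes rising and 31.1% and 28.6% falling, with Irf4 up by 3.24 ± 0.07 and 1.60 ± 0.08 (adjusted p = 2.1e-25 and 5e-17, limma). IL-21 alone against anti-CD40 went with 5 higher and 14 lower in GC cells and 6 higher and 14 lower in naive cells, with medians of -0.47 and -0.55. Of all genes 22.9% and 22.4% were higher there and 20% and 20.5% lower. The part of Bcl6 in the changes of these genes was not tested. In unstimulated cells 4 of the 23 were higher and 13 lower in GC than in naive cells, beside 24.1% and 29.6% of all genes. With the block 8 were higher and 13 lower, beside 78.4% of all genes called. The list shares S1pr1 and Gpr183 with the naive cell markers.

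**Figure D5:**
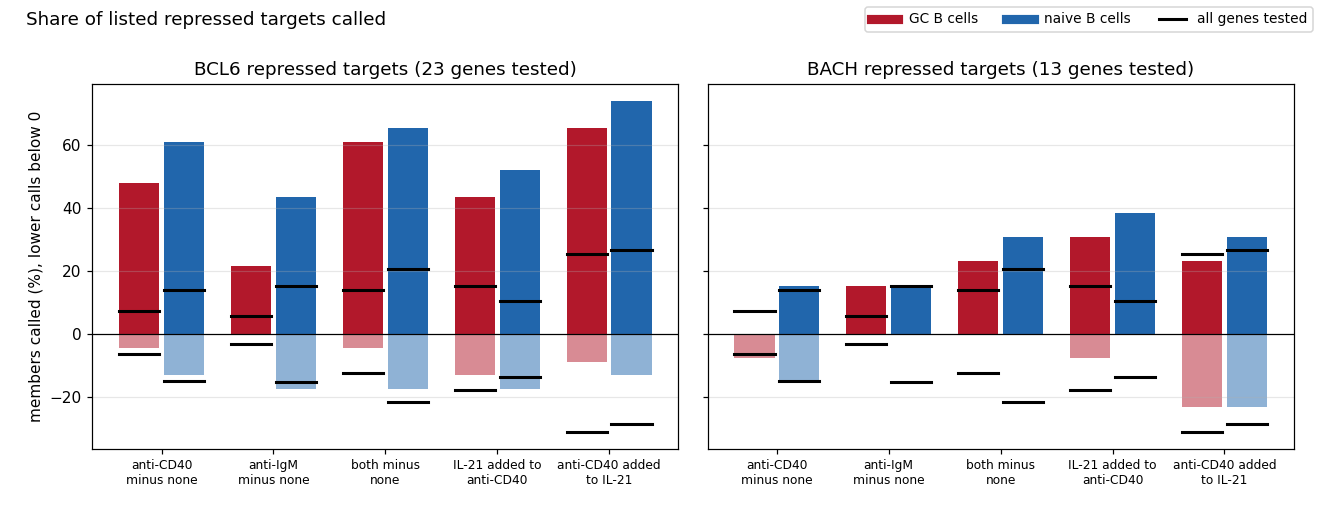
Share of listed BCL6 targets (left, 23 genes) and BACH targets (right, 13 genes) called higher (above 0) or lower (below 0) in 5 comparisons (x axis), in percent (y axis); bars are GC and naive cells and black lines are the shares of all genes tested. In the left panel the bars for 11 of 23 genes in GC and 14 of 23 in naive cells with anti-CD40 both stand above their lines.

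Genes described as repressed by BACH factors are mostly of heme, iron and redox metabolism. Of 14 listed, 13 were tested, and 0 rose and 1 fell under anti-CD40 in GC cells and 2 rose and 2 fell in naive cells, with medians of 0.01 and 0.03. Of all genes 7.49% rose and 6.45% fell in GC cells, and 13.9% rose and 14.8% fell in naive cells. With the block 3 rose and 3 fell in GC cells and 2 rose and 4 fell in naive cells, beside 35.2% and 52.7% of all genes called. Hmox1, the heme oxygenase gene, fell by 0.85 ± 0.25 in GC cells (adjusted p = 0.027, limma), and Cdkn1a, the p21 gene that is also on the BCL6 list, rose by 0.86 ± 0.26 in naive cells (adjusted p = 0.018, limma). Adding IL-21 to anti-CD40 raised 4 and lowered 1 in GC cells and raised 5 and lowered 0 in naive cells, with medians of 0.29 and 0.26 beside 15.4% and 10.6% of all genes rising and 17.8% and 13.7% falling. Tnfrsf14 rose by 0.65 ± 0.09 and 0.87 ± 0.09 (adjusted p = 1.6e-06 and 2.8e-09, limma).

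In unstimulated cells 2 of the 13 were higher and 9 lower in GC than in naive cells, beside 24.1% and 29.6% of all genes. With the block 2 were higher and 11 lower, beside 78.4% of all genes called. Txnrd1 differed by -2.05 ± 0.18 and Hmox1 by -2.61 ± 0.25 (adjusted p = 9.8e-09 and 4.5e-08, limma, without the block). Erythroid and myeloid markers were lower in the same GC libraries. In set B the summed level of 6 erythroid entries was 5.58 to 8.04 in GC and 8.28 to 10.31 in naive libraries. Hbb-bs and Beta-s were the same measured row, so the erythroid sums count it under both names. The summed level of 8 myeloid markers was 2.50 to 4.06 in GC and 6.08 to 8.57 in naive libraries. Of these lists, 2 erythroid markers and no myeloid marker were at or under a log2 level of 1 in every library. Their part in the difference of the BACH list was not tested.

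Prdm1, repressed by both factors, was at a low level, from -1.44 to 4.85. In GC cells it rose when anti-IgM was added to anti-CD40, by 2.98 ± 0.52 (adjusted p = 0.00064, limma), and when IL-21 was added, by 2.07 ± 0.18 (adjusted p = 1.6e-10, limma). In the first case Bcl6 was lower by 0.67 and Bach2 higher by 0.30, and in the second Bcl6 was lower by 1.65 and Bach2 higher by 1.01. Adding anti-CD40 to IL-21 in GC cells changed Prdm1 by -0.14 ± 0.17 (adjusted p = 0.5, limma). Bcl6 differed by -1.36 and Bach2 by -0.05. In GC cells IL-21 minus anti-CD40 was 2.21 ± 0.18 for Prdm1 (adjusted p = 1.3e-11, limma), -0.29 for Bcl6 and 1.06 for Bach2. GC means of Prdm1 were 2.05 and 2.18 under anti-IgM (2 h, 4 h) and -0.55 and 0.75 without stimulus. There Bcl6 differed by -0.28 and Bach2 by 0.08. The part of Bcl6 and Bach2 in Prdm1 was not tested. In naive cells Prdm1 fell under anti-CD40 by 1.46 ± 0.52 (adjusted p = 0.041, limma) and rose when IL-21 was added, by 2.00 ± 0.17 (adjusted p = 1.1e-10, limma). Of 9 tested genes of plasma cell differentiation (10 listed), 1 rose and 1 fell in GC cells when IL-21 was added and 2 rose and 1 fell in naive cells, beside 33.2% and 24.3% of all genes called. The fall was that of Xbp1, the secretory regulator, at -0.23 ± 0.06 and -0.38 ± 0.06 (adjusted p = 0.004 and 7.9e-06, limma).

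Among 6568 genes with a mean level of at least 4, the group means most like those of Bcl6, centred within set and cell type, were those of Actr1a, Slc48a1, Kctd20, Incenp and Dpf2. Their Pearson r was 0.65 to 0.84 over 12 group means of set A and 0.68 to 0.71 over 16 of set B. For Bach2 they were Dpy19l3, Vav1, B3gnt5, Nup210 and Trrap, with r from 0.70 to 0.76 in set A and 0.71 to 0.78 in set B. These genes were picked for their r, the group means share libraries and header number offsets, and no test was made.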

How the data were processed

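RNA of 66 libraries was measured after low-input cDNA synthesis (SMART-Seq v4). Per the submitters' processing notes, reads were handled with STAR 2.6.1a, Trim Galore 0.6.5, FastQC 0.11.7, limma, and featureCounts of Subread 2.0.1 on mm10, with roles and settings not given in the sources used here. Each deposited file has 1 column of log2 values made by the authors. Back-transformed, a library summed to 926830 at the lowest and 1065945 at the highest, which is near what log2 CPM would give. Read depth is unknown, so no counting interval is given. The commonest low value was -5.094 in set A and -4.833 in set B, so the sets appear to have been normalized separately, and they were fitted separately. Medians of the genes tested were 4.63 to 4.65 in set A and 4.79 to 4.84 in set B.

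A gene was tested if 4 or more of the 66 libraries had a log2 value over 1 (11264 genes, both members included). The test was limma 3.58.1 in R 4.3.3 (statmod 1.5.0), using moderation with a mean trend and robust to outlying genes. The residual degrees of freedom were 16 in set B and 22 in set A. A stimulus difference is the mean of those at 2 h and 4 h. Each comparison's two-sided p-values were adjusted across the 11264 genes (Benjamini-Hochberg), and an adjusted p under 0.05 was a call. The fit was run on simulated data with independent noise in each library, so that check does not cover the header number offset of set B.

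In set B, libraries with the same header number deviated together in all 56 GC pairs (r from 0.53 to 0.73) and all 56 naive pairs (0.59 to 0.73). In set A r was over 0.1 in 4 of 40 pairs of GC and 5 of 40 pairs of naive libraries. A shift by number made before deposit could also leave r low, so r cannot show that set A libraries were unpaired. The main fit of set A charged no degrees of freedom for such a shift. The header numbers therefore pair set B, and blocked values stand beside the calls and list counts they change most. Alternatives were 1 fit of all 66 libraries with a set term, a random or fixed replicate block, median centring, no filter or a filter at 3, moderation without trend, and leaving out each library.

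The members, the gene lists and the motifs were chosen with earlier results of these data known. From each list, at most 4 members were named for a comparison, those with the smallest adjusted p, and likeness named 5 genes per member. Prdm1 was also given outside this rule, beside Bcl6 and Bach2. A gene that this rule names is not reported here, though it stays in all tests and counts. Promoter windows are RefSeq sequence (GRCm38.p6), found for both members, and gene coordinates are from GENCODE for GRCm38.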

Additional observations from a re-analysis of the deposited data

Results flagged for a closer look

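The change of Bcl6 from 2 h to 4 h under IL-21 differed between the cell types. GC minus naive was 0.76 ± 0.17, a description with no test, from a rise of 1.06 ± 0.11 in GC cells and a change of 0.31 ± 0.13 in naive cells. All 3 GC libraries at 4 h lay above all 3 at 2 h.

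The change of Bach2 from 2 h to 4 h under anti-CD40 in set A also differed between the cell types. GC minus naive was -0.59 ± 0.19, again a description with no test, from falls of 1.00 ± 0.14 in GC and 0.40 ± 0.13 in naive cells. In set B the same difference was 0.62 ± 0.73. Groups of 2 or 3 libraries were too small for a test of single outlying libraries.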

How the results depend on the processing

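Every stimulus difference of Bcl6 and Bach2 is a description, and none of the alternatives moved one beyond the spread between replicates. In set B that spread includes the header number offset. The header number block cannot move a stimulus difference there, since each group holds both numbers. Median centring could move one only slightly, with medians of 4.63 to 4.65 in set A and 4.79 to 4.84 in set B. Of the time changes, these crossed the threshold. With the header number as a replicate block, Bcl6 passed at 0.90 (no stimulus, naive, set B), 0.63 (anti-CD40, naive, set B) and 0.26 (IL-21, naive, set A). With that block Bach2 passed in set B at 0.61 (no stimulus, GC), 1.42 (no stimulus, naive), 0.86 (anti-IgM, GC), 1.06 (anti-IgM, naive) and 0.41 (both stimuli, naive). A random replicate block by title number gave 0.90 and 0.30 for Bcl6 (no stimulus and IL-21, naive), and 1.42, 0.86 and 1.07 for Bach2 (no stimulus, naive; anti-IgM, GC and naive), all now passing. In 1 fit of all 66 libraries, where anti-CD40 time changes are averaged over sets, Bcl6 passed at 0.90 and Bach2 at 1.42 and 1.06 in the same naive groups. That fit turned the Bcl6 change under anti-CD40 in naive cells of set A to 0.08 and lost the Bach2 calls of set A, at -0.39 and -0.35 under anti-CD40 (GC, naive), 0.63 under IL-21 (GC) and 0.30 under the combination (GC). Without the filter the Bcl6 call at -0.29 (anti-CD40, naive, set A) and the Bach2 call at 0.30 (combination, GC) were lost, and the latter also without trend and robust moderation (0.30). With the stricter filter Bcl6 under IL-21 in naive cells passed at 0.31. Leaving out 1 library moved the Bcl6 change under anti-CD40 in naive cells of set A between -0.38 and -0.18, and the Bach2 change under the combination in GC cells between 0.25 and 0.34. The causes were not tested, except that the blocks remove the header number offset from the error of set B. No other time call of either gene changed with the header number block.

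The block raised most counts of genes called in set B by more than 1.5 times. Under anti-CD40 it went from 1571 to 3964 in GC and from 3235 to 5933 in naive cells, under anti-IgM from 1019 to 2650 and from 3428 to 6080, and under both stimuli from 2957 to 5410 in GC and from 4764 to 7112 in naive cells. For anti-IgM added to anti-CD40 it went from 1049 to 2956 and from 1626 to 3854. In set B, with 2 libraries a group, this spread limits what the fit without the block can call. Leaving 1 library of set B out leaves its group with a single library and unbalances the header numbers. The drops below therefore cannot be credited to the library left out. Leaving out replicate 2 of unstimulated GC cells at 4 h lowered the anti-IgM count to 656, and leaving out replicate 2 of GC cells with both stimuli at 2 h lowered that of anti-IgM added to anti-CD40 to 693. In the fit of all 66 libraries the GC counts were 2453 under anti-CD40 and 1540 under anti-IgM, and those for IL-21 added to anti-CD40 were 2006 in GC and 1208 in naive cells against 3739 and 2738. Time counts of set B without a block, from 24 to 2306 genes, moved most. Leaving out replicate 2 of unstimulated GC cells at 2 h gave 3 in place of 24, replicate 2 of GC cells with anti-IgM at 4 h gave 6 in place of 136, replicate 5 of GC cells with anti-CD40 at 4 h gave 319 in place of 1165, and replicate 1 of GC cells with both stimuli at 2 h gave 286 in place of 948. In naive cells the lowest counts were 684 in place of 1703 (no stimulus, without replicate 1 at 2 h), 884 in place of 1753 (anti-CD40, replicate 4 at 4 h), 900 in place of 1771 (anti-IgM, replicate 1 at 2 h) and 1350 in place of 2306 (both stimuli, replicate 1 at 2 h).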
